A study of Oryza sativa Japonica Group with 6 samples.

Results

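Rice genes of iron regulation, transport and storage were described in seedlings of wild-type Nipponbare and of the mutant osino80. The 10 loci were fixed by name and locus number: the regulators IRO2 (LOC_Os01g72370), IRO3 (LOC_Os03g26210), HRZ1 (LOC_Os01g49470), HRZ2 (LOC_Os05g47780) and IDEF1 (LOC_Os08g01090), the synthesis gene DMAS1 (LOC_Os03g13390), the transporters IRT1 (LOC_Os03g46470) and YSL2 (LOC_Os02g43370), and the ferritins FER1 (LOC_Os11g01530) and FER2 (LOC_Os12g01530). All 10 were among the 55801 loci of the count table, and all 10 passed the filter on low counts, which kept 24914 loci. The set was chosen by the counts of IRO2, about 3-fold higher in the mutant in this same comparison, so the difference between genotypes in these genes is given as a description, without a p-value. Where the side of the whole-table threshold is given for one of them, it describes how steady the value was and is not evidence of a difference.

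Rice takes up iron through chelators of the mugineic acid family, which its roots release and take back as the iron complex, and also takes up ferrous iron directly. IRO2 is a bHLH transcription factor, induced by iron shortage, that activates the genes of chelator synthesis and uptake. IDEF1 acts upstream of it, HRZ1 and HRZ2 are ubiquitin ligases that hold the response down when iron is sufficient, and IRO3 is a bHLH factor that restrains it. Ferritins store iron in plastids and are a common readout of iron supply in leaves.

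The 3 WT libraries and 3 osino80 libraries came from untreated, 14-day-old Nipponbare seedlings grown in chambers under short days, as the labels give it. The mutant, labelled osino80-2, is a single allele of the gene for OsINO80, which drives the INO80 chromatin remodelling complex as its ATPase subunit, and the labels do not describe its lesion. Neither do they describe the growth medium or its iron, or say whether each library is from plants of its own. The p-values below therefore speak only of the spread among these 6 libraries, and that spread may be technical. Total counts per library ranged from 61426662 to 73293481. OsINO80, taken as LOC_Os03g22900, had 7404 to 8671 counts in the WT libraries and 3731 to 4034 in the mutant, and its level in the mutant was 0.511 of that in WT (edgeR adjusted p = 2.56e-115). Green leaf markers were abundant, with 6 genes summing to 50071 to 51469 CPM (counts per 1000000, TMM-scaled) in every library. Of 6 root markers, only Lsi1 and PIP2.5 had a mean above 0.3 CPM in either genotype, while Lsi2, RCc3, CASP1 and PT2 were at or near 0. The libraries therefore hold little signal of these 4 root markers. The labels name seedlings and do not say which part was harvested.

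Among the regulators, IRO2 had the largest difference of the 10 genes. WT replicates 1 to 3 had 403, 385 and 305 counts of it, and osino80 replicates 1 to 3 had 1092, 1023 and 1082, or 5.35 ± 0.313 CPM against 16.8 ± 0.666 CPM (SD, n = 3). Every mutant library was above every WT library, and the libraries of a genotype lay close together. The ratio of the means was 3.14 in CPM and 3.18 in the deposited TPM (transcripts per 1000000), with a fitted log2 fold change of 1.65 ± 0.09 (SE). Across the table, 1.26% of tested loci were past the test's threshold with a rise of at least 3-fold. The name rests on the published locus number; the reference table of gene symbols gives OsIRO2 as a synonym of a gene on chromosome 3, the one it also calls IRO3.

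IRO3, the bHLH factor that restrains the iron deficiency response, had 552, 461 and 368 counts in the WT libraries against 471, 397 and 468 in the mutant. Its CPM values of 6.02 to 7.55 in WT and 6.40 to 7.57 in osino80 overlapped almost fully. The fitted log2 fold change was 0.05 ± 0.11 (SE). TPM is meant to allow levels of different genes to be set side by side, but how it was made is not given. In TPM, IRO3 was 3.75 times the level of IRO2 in WT and 1.26 times in osino80. This ratio was 3.53 to 4.10 in the WT libraries and 1.14 to 1.38 in the osino80 libraries, so the groups did not overlap. Since IRO3 differed little, the ratio mostly restates the difference in IRO2, by which the set was chosen. The mean of IRO3 itself was 7.29 TPM in WT and 7.82 TPM in osino80. By CPM, which is not per length, IRO3 had 6.73 and IRO2 5.35 in WT. In osino80 the order by CPM was the reverse, with 7.01 for IRO3 and 16.8 for IRO2.

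IDEF1, a transcription factor of the ABI3/VP1 family that acts early in iron shortage, differed in the opposite direction to IRO2. It had 63.9, 62.9 and 65.8 CPM in WT and 46.1, 43.3 and 43.5 CPM in osino80. The groups were well apart, with the lowest WT library above the highest mutant library. The mutant mean was 0.690 of the WT mean, with a log2 fold change of -0.53 ± 0.04 (SE). In the deposited TPM the ratio was 0.689.

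The ubiquitin ligase genes HRZ1 and HRZ2 differed little. HRZ1 had 74.8, 79.9 and 76.0 CPM in WT and 81.6, 78.3 and 82.6 CPM in osino80, and the groups overlapped through WT replicate 2 and osino80 replicate 2. Its log2 fold change was 0.07 ± 0.03 (SE). It was just short of the threshold, and was past it in 6 of 15 alternatives, among them without WT replicate 2 (0.10) or osino80 replicate 2 (0.09). HRZ2 had 20.6 to 24.0 CPM in WT and 21.1 to 22.7 CPM in osino80, so the mutant range lay inside the WT range, with a log2 fold change of -0.01 ± 0.06 (SE).

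DMAS1 encodes deoxymugineic acid synthase, the enzyme of the last step of chelator synthesis. Its counts were 827, 801 and 768 in WT and 586, 806 and 765 in osino80, so that osino80 replicate 1 stood below the other 5 libraries. WT averaged 11.8 ± 0.663 CPM and osino80 11.3 ± 1.80 CPM (SD, n = 3). The log2 fold change of -0.06 ± 0.08 (SE) became 0.06 without osino80 replicate 1.

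The transporter genes were the least abundant of the set. IRT1, a ferrous iron transporter of the root, gave 80, 68 and 59 counts in WT against 73, 132 and 66 in osino80. One library, osino80 replicate 2, was far above the rest, and the remaining mutant libraries were close to WT. The log2 fold change of 0.49 ± 0.25 (SE) was 0.10 when that library was left out, and was 0.70, past the threshold, without osino80 replicate 3. YSL2, which carries iron and manganese bound to nicotianamine in the phloem, gave 192, 165 and 189 counts in WT against 142, 120 and 113 in osino80. Its CPM values were 2.37 to 3.09 in WT and 1.70 to 2.28 in osino80 and did not overlap, although the nearest libraries were close. Its log2 fold change of -0.45 ± 0.17 (SE) ranged from -0.57 to -0.25 over the alternatives and was not past the threshold in 6 of the 15, among them without WT replicate 1 (-0.47), WT replicate 3 (-0.34), osino80 replicate 2 (-0.44) or osino80 replicate 3 (-0.35).

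The ferritin genes were the most abundant and the steadiest. FER2 had 303, 299 and 299 CPM in WT and 267, 265 and 271 CPM in osino80. The groups were clearly apart at a coefficient of variation of about 1% within each genotype. The mutant mean was 0.893 of the WT mean, a log2 fold change of -0.16 ± 0.02 (SE). FER1 had 283, 292 and 285 CPM in WT and 274, 276 and 282 CPM in osino80, which did not overlap by a small margin. Its log2 fold change was -0.05 ± 0.02 (SE) and was not past the threshold in 10 of 15 alternatives. These included the fits without WT replicate 2 (-0.04 on the log2 scale), WT replicate 3 (-0.05), osino80 replicate 1 (-0.04) or osino80 replicate 2 (-0.04), and both fits to TPM (-0.06).

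FER1 and FER2 are close copies on the duplicated ends of chromosomes 11 and 12, and the sources used here do not give how reads matching both were counted, so the split between them is uncertain. Their sum does not depend on that split as long as shared reads were counted, and none in full at both loci. WT libraries averaged 587 ± 3.07 CPM of the sum and osino80 libraries 546 ± 7.24 CPM (SD, n = 3), with a mutant-to-WT ratio of 0.929. FER1 took 48.3% to 49.4% of the pair's counts in WT and 50.7% to 51.0% in osino80, and these ranges did not overlap.

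**Figure D1:**
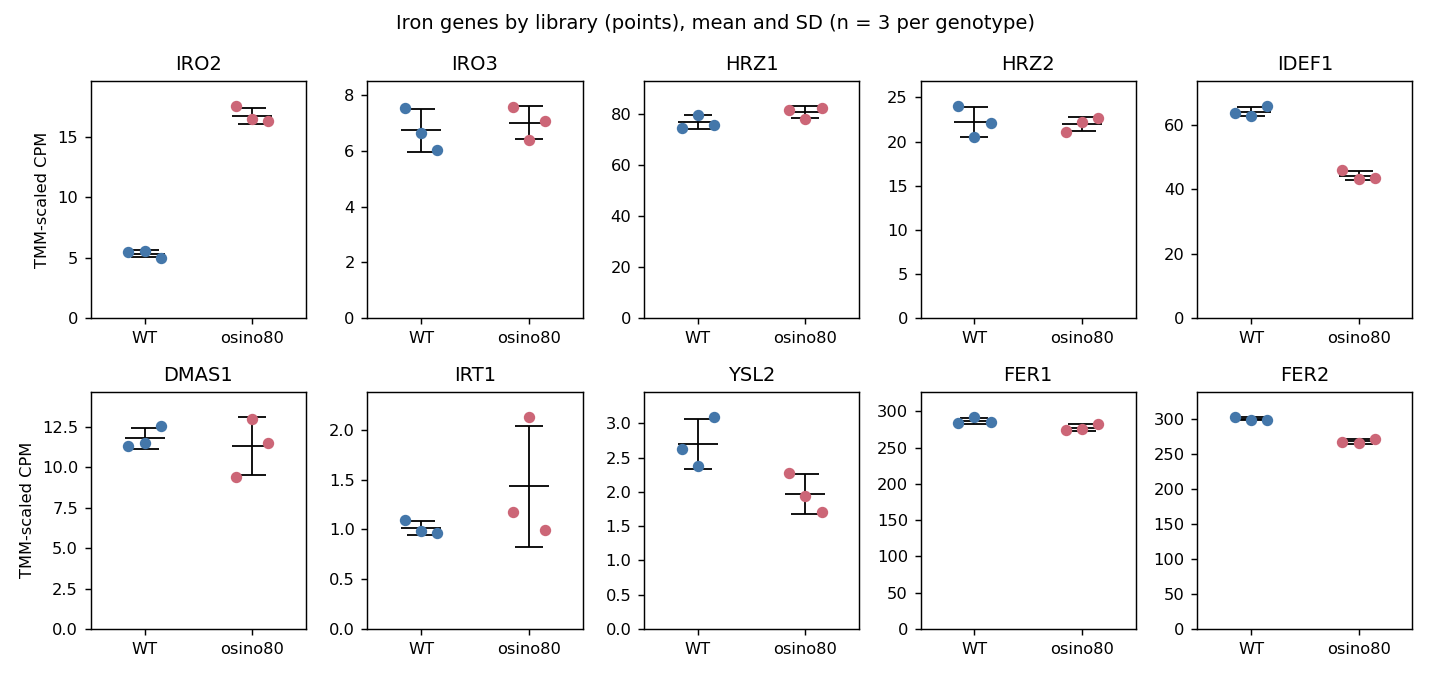
Expression of the 10 iron genes as TMM-scaled CPM (vertical axis, from 0, a scale per panel) in the 3 WT and 3 osino80 libraries; points are libraries, and the bars give the mean and SD. IRO2 is higher in all 3 mutant libraries, IDEF1 and FER2 are lower in all 3, and 1 library of osino80 stands out for IRT1.

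With the test applied to the whole table (edgeR, adjusted p at most 0.05 over 24914 loci), 5 of the 10 genes were past the threshold, 1 higher (IRO2) and 4 lower (IDEF1, YSL2, FER1 and FER2), where 37.6% of all tested loci were past it, 18.4% higher and 19.1% lower. Because the genes were chosen with this comparison in view, nothing is read from that count. The CPM values did not overlap between genotypes for the same 5 genes, against 45.7% of all tested loci. The median log2 fold change of the 9 genes other than IRO2 was -0.05, and the median over all tested loci was 0.00. The median size of the change, regardless of direction, was 0.07 for those 9 and 0.16 for all tested loci. In bulk seedlings, fewer cells of a type and less RNA per cell cannot be told apart.

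Per transcript length, the 10 genes spanned a 241-fold range in WT. FER1 led with 255 ± 3.35 TPM and FER2 followed with 237 ± 1.39 TPM (SD, n = 3), at the 98.2 and 98.0 percentile of tested loci. IDEF1 had 54.8 ± 1.17 TPM and HRZ1 30.7 ± 1.07 TPM. Below these, HRZ2 with 12.1 ± 1.14 TPM and DMAS1 with 11.3 ± 0.715 TPM overlapped and cannot be ordered. IRO3 followed with 7.29 ± 0.860 TPM. IRO2 had 1.94 ± 0.0820, YSL2 1.40 ± 0.284 and IRT1 1.06 ± 0.0869 TPM, and these 3 were the lowest in WT without overlap between neighbours.

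In osino80 the order was the same for the first 8 genes. IRO2 stayed in the eighth place at 6.18 ± 0.118 TPM, below IRO3 at 7.82 ± 0.825 TPM, without overlap between them. By CPM, which is not per length, IRO2 at 16.8 stood above IRO3 at 7.01 in osino80, and FER2 above FER1 in WT. Among tested loci, IRO2 stood at the 23.3 percentile of TPM in WT and at the 40.4 percentile in osino80. IDEF1 at 37.7 ± 1.61 TPM remained above HRZ1 at 32.3 ± 0.886 TPM, although their ratio went from 1.78 in WT to 1.17. HRZ2 and DMAS1 overlapped again. IRT1 at 1.59 ± 0.673 TPM and YSL2 at 1.02 ± 0.181 TPM changed places but overlapped, so their order is not resolved.

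**Figure D2:**
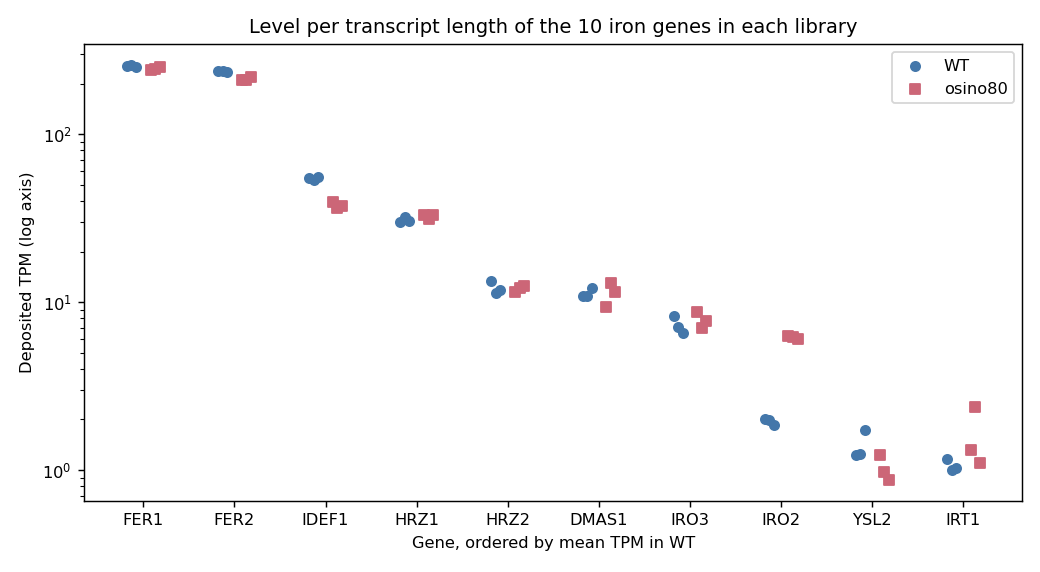
Level of each iron gene per transcript length, as deposited TPM on a log axis, in every library (circles WT, squares osino80), with genes ordered by their WT mean. The ferritins lie at the top, with WT means of 255 and 237 TPM, and IRO2 moves from about 2 TPM in WT to about 6 TPM in osino80, next to IRO3.

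The count and TPM tables were compared for IRO2, since its TPM was low for its counts. It had 176 counts per TPM, more than 96.7% of the 22787 tested loci above 0.5 TPM; the median was 71.6, and IRO3 had 60.0. This quotient grows with the counted length of a locus, and HRZ1, at 165, was similar. TPM is not the count table rescaled, so the quotient need not reflect length alone. The cause of the high value for IRO2 was not tested, and its place below IRO3 in TPM depends on it in osino80. The ratio between genotypes was close in both tables, as given above. For YSL2 the tables parted in single libraries: WT replicates 1 and 3 had 192 and 189 counts but 1.23 and 1.73 TPM, and the lowest WT value was only just above the highest osino80 value of 1.22 TPM.

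The 10 genes also differed in how much they varied between libraries of a genotype. In WT the coefficient of variation of CPM ran from 0.731% for FER2 to 13.5% for YSL2, and in osino80 from 1.18% for FER2 to 42.5% for IRT1. IRO2 had 5.85% in WT and 3.97% in osino80. The next largest values were 11.5% for IRO3 in WT and 15.9% for DMAS1 in osino80.

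Other genes of iron handling, a list of 28, showed changes in both directions. Of these, 20 were tested: 6 rose, 7 fell and 7 did not pass. The count of 13 past the threshold stands beside 37.6% of all tested loci, and 11 of the 16 with a mean of at least 10 CPM passed beside 50.3% of all such loci. The median log2 fold change of the 20 was -0.02, the median size regardless of direction was 0.17, and only NRAMP1 passed with at least 1.5-fold, a size that 7.32% of tested loci reached. This list was also chosen with earlier results of these data known, so its counts and p-values are given as a description.

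Among the regulators of this list 1 rose, 2 fell and 3 did not pass. IMA1, which encodes a small peptide that promotes the iron deficiency response, rose from 19.0 ± 0.514 to 25.9 ± 0.390 CPM (SD, n = 3; edgeR adjusted p = 1.61e-12). Its relative IMA2 fell by 0.10 on the log2 scale (edgeR adjusted p = 0.0455, between 0.0374 and 0.224 under the alternatives). That call was lost with median-of-ratios scaling, on log2(TPM + 0.1), and without WT replicate 1 (log2 fold change -0.08), WT replicate 2 (-0.11), osino80 replicate 2 (-0.12) or osino80 replicate 3 (-0.08). IDEF2, a NAC transcription factor of the response, fell by 0.10 on the log2 scale (edgeR adjusted p = 6.65e-05). The bHLH regulators PRI2 at 0.10 ± 0.05 and PRI3 at 0.03 ± 0.03 (log2 fold change ± SE) did not pass, and neither did PRI1. PRI2 did pass without WT replicate 1 (0.14) or osino80 replicate 2 (0.13).

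Of the list's genes for chelator synthesis, which DMAS1 is not part of, the 2 tested ones rose. Across the table, 18.4% of tested loci were higher past the threshold. Of loci with a mean of at least 10 CPM, 50.3% passed in either direction. DMAS1 itself did not pass, with a log2 fold change of -0.06. NAAT1, the nicotianamine aminotransferase gene one step before DMAS1, had 1366, 1428 and 1501 counts in the mutant against 1219, 1191 and 1095 in WT, or 22.5 ± 0.539 against 17.2 ± 0.617 CPM (SD, n = 3; log2 fold change 0.39 ± 0.06 SE, edgeR adjusted p = 1.09e-08). NAS3, a nicotianamine synthase gene, rose by 0.18 ± 0.03 on the log2 scale (edgeR adjusted p = 1.64e-06). Both had higher CPM in every mutant library than in any WT library. The other two nicotianamine synthase genes were almost silent and not tested, with 5 counts in WT and 28 in osino80, summed over libraries, for NAS1, and 2 and 4 for NAS2.

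Of the transport genes 3 rose, 5 fell and 4 did not pass. NRAMP1, a metal transporter gene, rose 2.51-fold, with 242, 273 and 146 counts in WT against 540, 487 and 508 in the mutant, past the threshold (log2 fold change 1.32 ± 0.12 SE, edgeR adjusted p = 1.11e-22). WT replicate 3 was the lowest library, and all mutant libraries were above all WT libraries. VIT1, a vacuolar iron transporter gene, rose by 0.30 ± 0.08 and YSL6 by 0.08 ± 0.02 on the log2 scale (edgeR adjusted p = 0.000376 and 0.00148). VIT2 at 0.10 ± 0.05 did not pass.

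Genes that fell included PEZ1, which exports phenolic acids that help to mobilise iron, by 0.46 on the log2 scale to 10.9 ± 0.542 CPM (SD, n = 3; edgeR adjusted p = 2.77e-08). MIT, the mitochondrial iron transporter gene, fell from 73.6 ± 2.24 to 54.6 ± 1.17 CPM (edgeR adjusted p = 1.27e-29). NRAMP5, the main manganese uptake transporter gene, fell by 0.35 on the log2 scale (edgeR adjusted p = 0.000380), in contrast to NRAMP1, which lies near it by locus number. YSL16, a transporter of metal complexes with nicotianamine, fell by 0.25 (edgeR adjusted p = 6.83e-10). Of the pair of ferric reductase genes, LOC_Os04g36720 fell by 0.16 on the log2 scale (edgeR adjusted p = 5.59e-14), and LOC_Os04g48930, with 48 counts over WT and 21 over osino80, did not pass at -1.09 ± 0.63.

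**Figure D3:**
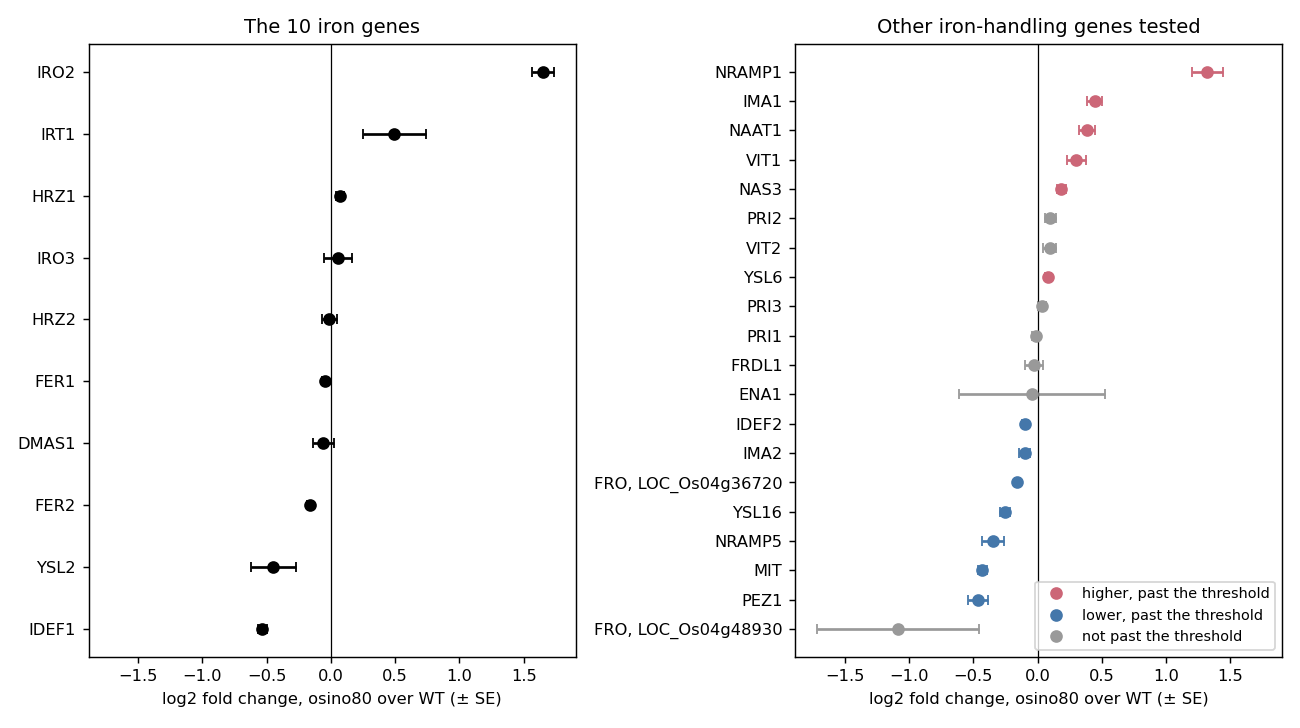
Log2 fold change of osino80 over WT with its SE for the 10 iron genes (left, given as a description and not coloured by the test) and the 20 other iron-handling genes tested (right, coloured by edgeR adjusted p at most 0.05). IRO2 at 1.65 and NRAMP1 at 1.32 lie farthest to the right; most other genes lie within 0.5 of 0.

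YSL15 and TOM1, which IRO2 is known to activate in iron-deficient roots, and the gene of its partner factor were close to silent in both genotypes. YSL15, the root transporter of the iron chelator complex, had 0 counts over WT and 2 over osino80. TOM1, the exporter of the chelator, had 14 counts over WT and 0 over osino80. A count of 0 there allows up to 0.0158 CPM (counting error only, with counts taken as independent). The limit is higher if each read of a pair was counted. The gene for bHLH156, which partners IRO2, had 8 and 6 counts, which is few against the 305 or more counts of IRO2 in each library. Of the rest of the list, IRT2 had 12 and 16 counts, and bHLH133 and YSL18 had 0 in all 6 libraries. All 6 genes were below the filter on low counts and were not tested. Genes of chelator synthesis were not all silent. NAS1 and NAS2 were almost so, but DMAS1 had 11.8 CPM in WT and 11.3 CPM in osino80. NAAT1 had 17.2 CPM in WT and 22.5 CPM in osino80.

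The root markers were set beside IRO2, which is known to activate genes in iron-deficient roots. Their summed level was 16.5 to 17.4 CPM in WT and 20.7 to 21.6 CPM in osino80. Nearly all of it was Lsi1, the silicon influx transporter gene, at 15.4 ± 0.633 CPM in WT against 19.7 ± 0.511 CPM in the mutant (SD, n = 3), 1.28-fold higher (edgeR adjusted p = 9.77e-07). It was the only 1 of 4 tested root markers past the threshold. Lsi2, the silicon efflux transporter gene, moved the other way in counts, with 12, 14 and 8 in WT and 0 in each osino80 library. The part of root content in the IRO2, IRT1, NAAT1 and NRAMP1 values was not tested. Of the 6 green leaf markers 2 rose and 4 fell, each by less than 0.2 on the log2 scale, where 50.3% of tested loci with a mean of at least 10 CPM were past the threshold.

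Loci numbered next to the iron genes were examined to see whether neighbours differed with them. Of 100 tested loci, 5 on either side of each gene, 39 passed, 18 higher and 21 lower, which is close to the 37.6% of all tested loci. Around IRO2, 3 of 10 neighbours rose and 5 fell. LOC_Os01g72360, just before it, had 22 counts over WT and 41 over osino80. Its log2 fold change of 0.98 ± 0.64 (SE) did not pass, and so few counts leave it imprecise. LOC_Os01g72380, just after IRO2, fell by 0.24 on the log2 scale (edgeR adjusted p = 0.0210). Neither of these adjacent tested loci was higher past the threshold.

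Of the 100 neighbours, 6 passed with a change of at least 1.5-fold, beside 7.32% of all tested loci; the 4 with the largest changes are named. LOC_Os01g72410, close to IRO2, fell from 5.23 ± 1.06 to 3.08 ± 0.0871 CPM (edgeR adjusted p = 2.43e-07). LOC_Os05g47700, near HRZ2, rose 1.59-fold (edgeR adjusted p = 1.36e-34). LOC_Os03g46560, near IRT1, fell by 0.71 on the log2 scale (edgeR adjusted p = 0.0108, range 0.00723 to 0.0895), a call lost without WT replicate 3 (-0.57). LOC_Os12g01480, near FER2, fell by 0.66 (edgeR adjusted p = 0.00112, range 0.000455 to 0.0686), a call lost without WT replicate 2 (-0.47). The uncertainty about reads shared between the duplicated ends of chromosomes 11 and 12 may apply to it too. The locus of the same number near FER1, LOC_Os11g01480, had 533 counts over WT and 595 over osino80 and did not pass. Around IRT1 8 of 10 neighbours passed, 2 higher and 6 lower, beside 37.6% of all tested loci. The count around IRO2 was also 8 of 10, and these 2 were the highest of the 10 sets. IRT1 itself was higher in the mutant mean mostly through osino80 replicate 2, without which its log2 fold change was 0.10. The lowest count was around YSL2, where 1 of 10 passed.

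**Figure D4:**
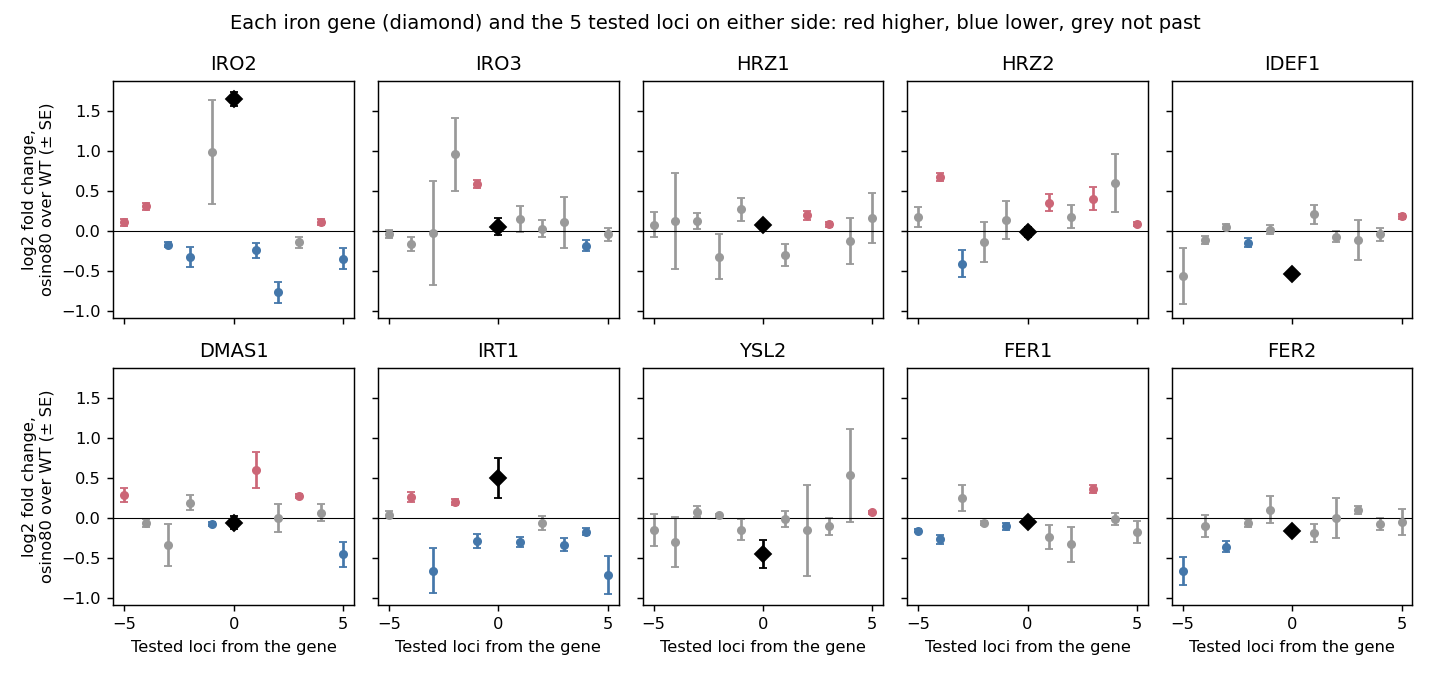
Log2 fold change of osino80 over WT with its SE for each iron gene (diamond) and the 5 tested loci before and after it by locus number (circles; red higher and blue lower past the threshold, grey not past). IRO2 at 1.65 lies above all 10 of its neighbours, which its choice for a large rise made likely.

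The loci whose pattern over the 6 libraries was most like that of IRO2 were found by Euclidean distance of mean-centred log2 CPM among 24913 other tested loci. The nearest was LOC_Os05g30700, at a distance of 0.14, with 516, 545 and 414 counts in WT against 1484, 1296 and 1399 in the mutant. The next was LOC_Os03g55540, at 0.15, with 24.2 ± 1.45 CPM in WT against 72.3 ± 1.20 CPM in the mutant (SD, n = 3). With 2 genotypes, such likeness mostly reflects a difference of the same size, 3.04-fold and 2.98-fold here. Neither locus is an iron gene of the lists used, and the files give them no name.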

How the data were processed

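The authors deposited raw counts per locus and TPM for 6 mRNA libraries made with the KAPA stranded mRNA kit, per the labels' protocols. The submitters' processing notes name featureCounts, HISAT2, cutadapt and SAMtools. Not given in the sources used here are their versions, the genome build and annotation, the strand setting, how multi-mapping reads were treated and how TPM was made. The deposited TPM columns sum to 1000000 each. The TPM of 665 loci with 0 counts is above 0, so TPM is not the count table rescaled. Of counts between 1 and 20, 82.4% to 83.7% were even in each library, as if each read of a pair were counted, so counting intervals are too narrow.

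The counts were tested with edgeR 4.0.16 (R 4.3.3): filterByExpr, TMM scaling, robust glmQLFit, and glmQLFTest on the genotype term, two-sided, Benjamini-Hochberg adjustment over 24914 loci, threshold 0.05. This is the test meant by edgeR adjusted p. SE is the size of the log2 fold change over the root of its F statistic. The fits were tested on simulated data. Alternatives were a replicate block, median-of-ratios scaling, DESeq2 1.42.0, limma 3.58.1 voom, no filter on low counts, a filter at a mean count of 10, limma on log2(TPM + 1) and log2(TPM + 0.1) over the same loci, halved counts, and each library left out in turn.

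The members and lists were chosen with earlier results of these data known. Names come from published locus numbers; the reference table (assembly ASM3414082v1) holds 0 LOC_Os identifiers, placed 4 member names and 13 of the 28 other names on the chromosome their locus number gives, and IRO2 and TOM1 on another. No coordinates are given. Named are OsINO80, the 10 genes, list genes past the threshold, 4 others with the smallest p, untested ones by counts, and, of neighbours past the threshold with at least a 1.5-fold change, the 4 with the largest; any other gene was picked with its values in view. No 2 libraries of a genotype agreed within the sampling noise of independent counts (chi-square per degree of freedom of 3.63 to 4.10). Counting each read of a pair would by itself raise this value. Deviations of same-numbered libraries from their group means were uncorrelated (r of 0.0117, -0.0173 and 0.00981).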

Additional observations from a re-analysis of the deposited data

How the results depend on the processing

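The whole-table count of 9363 loci past the threshold lay between 7410 and 9644 over the 15 alternatives, and that of the 13 other iron genes between 12 and 14. The count of 5 among the 10 iron genes became 3 with limma on log2(TPM + 1) and 3 on log2(TPM + 0.1), where YSL2 and FER1 lost their call, and ranged from 3 to 5 with a library left out (3 without WT replicate 3). That of 39 neighbours became 24 and 23 on the TPM scales. Log2 fold changes near 0 changed sign with a library left out: HRZ2 ranged from -0.0665 to 0.0465, IRO3 from -0.0195 to 0.1457, DMAS1 from -0.1697 to 0.0559 and PRI3 from -0.002 to 0.0597. The cause was not tested. Of 494 values of named genes under alternatives, 455 kept direction and side of the threshold. With the replicate number as a block, 6 of the 10 iron genes were past the threshold, HRZ1 being added, as it also was in 5 other alternatives; 2 of 6 libraries correlated best with their own number. Ordering the genes by CPM, which is not per length, kept 7 of the 9 adjacent pairs of the TPM order in WT and 6 in osino80. IRT1 and YSL2 rest on at most 192 counts a library, which limits their precision.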
